A study of Mus musculus with 12 samples.

Results

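The levels of 10 long noncoding RNAs were compared between the lysate of the mouse retina and the ribosomes of its rods. They were Malat1, Neat1, Meg3, Miat, Snhg11, Rian, Mirg, Tug1, Kcnq1ot1 and Gas5, taken by gene symbol from the deposited tables, which gave 10 of 56748 entries. All 10 were found in both tables, and all were read over 12 libraries. RNA was sequenced from the whole retinal lysate (retina) and from ribosomes pulled down from rods (rod TRAP) of 2-month-old mice, with 3 libraries in each of 4 groups. Every animal carried RiboTag, an HA-tagged version of the ribosomal protein Rpl22, and i75-Rod-Cre, a Cre transgene driven by the rhodopsin promoter that switches the tag on in rods. The control groups were RiboTag;i75-Rod-Cre littermates, and the Abca4Ko groups were RiboTag;Abca4-/-;i75-Rod-Cre mice, which lack the retinal lipid transporter of photoreceptor outer segments. All mice were perfused with cycloheximide to stop ribosomes from running off, and cDNA was made with a low-input kit from 10 ng of RNA for rod TRAP and 5 ng for retina. The labels do not say whether the replicates were single animals, so p-values measure the spread between these libraries.

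Long noncoding RNAs are long transcripts that are not known to work through a protein, and many of them are spliced and polyadenylated like messages. Malat1 and Neat1 are kept in the nucleus, where Malat1 gathers in nuclear speckles and Neat1 builds paraspeckles, and Kcnq1ot1 stays at the chromatin from which it is transcribed. Gas5 goes the other way. It leaves the nucleus after its introns have released small nucleolar RNAs (snoRNAs), is engaged by ribosomes at a short reading frame, and is then destroyed by nonsense-mediated decay, which cycloheximide slows. Rod TRAP and lysate also differ in their cells, because the pull-down takes ribosomes of rods and the lysate holds RNA of every cell of the retina.

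Some features of these RNAs were looked up in their sequences, the first of them at the start of the transcript. Messages of ribosomal proteins and many snoRNA hosts begin with a C followed by pyrimidines, the 5′TOP tract that ties translation to growth signals. The windows below are from RefSeq on GRCm38.p6 and run from 20 bases before the annotated start to 30 bases from it. Capitals mark a tract of at least 5 bases of C or T that opens with C at the first transcribed base. They are shown because Gas5 has the tract at its second annotated start, chr1:161035146-161035195 on the plus strand, as does the snoRNA host Snhg8 at chr3:123508307-123508356 on the minus strand. Neither Tug1 (chr11:3648785-3648834, minus strand) nor Malat1 (chr19:5802643-5802692, minus strand) has it.
Gas5: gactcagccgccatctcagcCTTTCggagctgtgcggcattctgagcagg
Snhg8: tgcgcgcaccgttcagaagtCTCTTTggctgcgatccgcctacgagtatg
Tug1: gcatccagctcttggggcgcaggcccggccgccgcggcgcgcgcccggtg
Malat1: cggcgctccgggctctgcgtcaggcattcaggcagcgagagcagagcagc
The first annotated start of Gas5 has no tract. Of the 11 windows of the 9 members with a start in the RefSeq table, 2 had it (18.2%), 1 each of Gas5 and Miat, against 823 of 32851 windows of all genes (2.51%). Among the 16 windows of the 5′TOP messages that matched, 2 had it (12.5%), so its absence from a window says only that these letters are not there.

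The second feature is how the RNA ends. The 3′ ends of Malat1 and of the long form of Neat1 are not made by polyadenylation. They fold into a triple helix that uses a genome-encoded run of A. The last 11 bases of the longest Neat1 transcript, AAAAAGCAAAA, in capitals, were searched in the sense strand. They were found in 618 of 141767 annotated transcripts (0.436%), among them transcripts of 3 members. The match in Neat1 was fixed in advance, because Neat1 gave the letters. The members are counted as genes, so their number cannot be set against the share of transcripts. The letters stood at bases 6681 to 6691 of the 6983 bases of the longest Malat1 transcript and at the last bases, 20761 to 20771, of the Neat1 transcript. Both transcripts are 1 exon on the minus strand, and the stretches shown are chr19:5795972-5796022 and chr19:5824708-5824748 on GRCm38. In Snhg11 the letters lay inside the longest transcript, at bases 4909 to 4919 of 5864. The runs are shown because cDNA made from an oligo(dT) primer can start from such A-rich stretches as well as from a tail. Where the cDNA of these RNAs was primed was not tested.
Malat1: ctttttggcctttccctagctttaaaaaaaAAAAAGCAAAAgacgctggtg
Neat1: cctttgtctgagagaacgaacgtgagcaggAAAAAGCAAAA

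The values are scaled counts, read counts that the authors multiplied by 1 factor per library so that each library of a fraction has nearly the same total, 17096515 to 17097707 in rod TRAP and 17860761 to 17862326 in retina. For tests, libraries were rescaled by TMM, a trimmed mean of log ratios, expressed as CPM, counts relative to the library total, and fitted with limma on log2(CPM + 0.5), with p-values adjusted over all genes tested. In control mice 14 of 14 rod markers were higher in rod TRAP than in retina, at a median of 1.28 on the log2 scale, and all 8 ganglion cell, all 8 amacrine cell and all 8 Müller glia markers were lower, their medians being -4.40, -3.87 and -4.28. Of the other lists, 7 of 8 cone, 7 of 8 bipolar, 3 of 3 horizontal cell, 6 of 7 microglia, 5 of 6 vascular and 5 of 5 retinal pigment epithelium markers were lower. None of 6 lens markers passed, which in retina summed to between 8.49 and 10348 CPM. Abca4 stood at 0.349% to 0.958% of the control mean in 4 of the 6 Abca4Ko libraries. It was at 23.5% in the rod TRAP library and 21.3% in the retina library labelled Abca4Ko replicate 3, and values without these 2 libraries are given beside the results for Abca4Ko mice. In bulk RNA such as this, fewer cells of a type and less RNA per cell cannot be told apart.

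**Figure D1:**
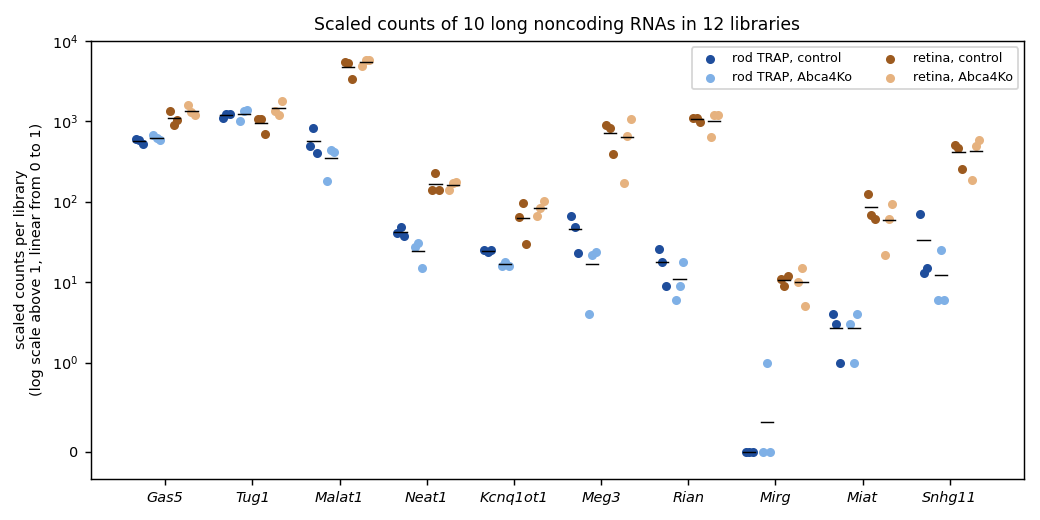
Scaled counts of each RNA in each of the 12 libraries, with a bar at the mean of the 3 libraries of a group. The vertical axis is logarithmic above 1 and linear from 0 to 1. Gas5 (525 to 1571) and Tug1 (687 to 1799) vary least, Rian falls from 636 to 1204 in retina to 6 to 26 in rod TRAP, and Mirg is at 0 in 5 of 6 rod TRAP libraries.

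Compared per length, in TPM, the share of all transcripts scaled for length, Gas5 was the most abundant member in every group. In control retina its level was 378 ± 54.5 TPM (SD, n = 3). Malat1 followed at 90.0 ± 23.9 TPM, Rian at 58.3 ± 9.21 TPM and Tug1 at 21.8 ± 6.05 TPM, and no 2 neighbours in this order overlapped. Snhg11 (9.77 ± 1.498 TPM) overlapped with Meg3 (9.10 ± 3.29 TPM), and Meg3 with Neat1 (5.23 ± 1.86 TPM). Miat and Mirg were at about 1.2 TPM, and Kcnq1ot1, a single exon of 93092 bases, was at 0 or 0.1 TPM in every library.

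The order changed in the ribosomes. In control rod TRAP Gas5 stood at 255 ± 22.5 TPM, and Tug1 rose to second place with 35.4 ± 0.802 TPM. Malat1 came next at 14.8 ± 5.42 TPM, and these 3 did not overlap. Neat1 was at 2.53 ± 0.987 TPM and Rian was at 1.43 ± 0.737 TPM, overlapping with it. Mirg and Kcnq1ot1 were listed at 0 in all 3 control rod TRAP libraries. In the Abca4Ko groups Gas5, Tug1 and Malat1 held the same first places in rod TRAP, and Gas5, Malat1 and Rian in retina, where Rian (53.1 ± 20.2 TPM) overlapped with Tug1 (32.7 ± 9.36 TPM).

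The first comparison asked where each RNA stood between ribosome-bound rod RNA and the lysate. In control mice 6 of the 9 members tested were lower in rod TRAP, 1 was higher and 2 did not pass the test. Over all 16286 genes, 38.8% were lower and 36.6% were higher. The median log2 fold change was -2.34 over the 9 members and -0.03 over all genes. In Abca4Ko mice 8 of 9 were lower and none was higher, against 33.7% and 30.4% of 16036 genes, with medians of -2.07 and 0.00. Mirg did not pass the filter on low values in either comparison. The filter asked for at least 10 scaled counts in at least 3 libraries. Miat, under 10 in every rod TRAP library, passed through retina alone, so its direction follows from the filter. Rian had 1 control rod TRAP library under 10, and Rian, Snhg11 and Meg3 had at least 1 Abca4Ko rod TRAP library under 10, so they also passed only with the help of retina. These counts and medians over the members that passed are therefore a description. The annotation's whole class of long noncoding RNAs was less one-sided: of 990 tested in control mice, 41.6% were lower and 26.8% higher, with a median of -0.25.

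Rian, Meg3 and Mirg are transcribed one after another from the maternal copy of the imprinted Dlk1-Dio3 region on chromosome 12. Rian carries 13 snoRNAs and 4 microRNAs in the GRCm38 annotation, Mirg 14 microRNAs and Meg3 2 microRNAs. Rian had the lowest log2 fold change of the members. Its scaled counts were 1101, 1083 and 975 in control retina and 26, 18 and 9 in control rod TRAP. In Abca4Ko mice they were 636, 1203 and 1204 in retina and 6, 9 and 18 in rod TRAP. Every retina library lay far above every rod TRAP library. The log2 fold change was -4.79 (SE 0.23, limma adjusted p = 1.99e-09) in control mice, 27.7-fold lower, and -5.22 (SE 0.28, limma adjusted p = 1.43e-07) in Abca4Ko mice, 37.2-fold lower.

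Meg3, the maternally expressed first transcript of the region, counted 896, 822 and 393 in control retina and 66, 48 and 23 in control rod TRAP. In Abca4Ko mice it counted 170, 654 and 1057 in retina and 4, 22 and 24 in rod TRAP. The fractions did not overlap, but libraries of a group differed by several fold and the retina and rod TRAP libraries of Abca4Ko replicate 1 were the lowest of each fraction. The log2 fold change was -3.06 (SE 0.33, limma adjusted p = 2.42e-06) in control mice and -3.95 (SE 0.60, limma adjusted p = 4.43e-04) in Abca4Ko mice. The ratio of the 2 RNAs set the control fractions apart. In control mice there were 1.68 ± 0.699 scaled counts of Rian per scaled count of Meg3 in retina and 0.387 ± 0.0103 in rod TRAP, with no overlap (SD, n = 3). In Abca4Ko mice the ratios, 2.24 ± 1.35 and 0.886 ± 0.558, overlapped.

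Mirg, the microRNA host at the far end, was scarce. It counted 11, 9 and 12 in control retina and 10, 15 and 5 in Abca4Ko retina. In rod TRAP it was at 0 in 5 libraries and at 1 in Abca4Ko replicate 2. Scaled counts were treated as reads, which is an approximation. With a floor of 3 set over the group, its level in control rod TRAP came out 6.92-fold lower than in retina. That value leaves out the counting error of retina and is not an interval. In Abca4Ko mice Mirg was at 5.09% of the retina level, with an exact 95% interval for counting error, under the same approximation, of 0.125% to 30.6%.

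Of the 2 nuclear body RNAs on chromosome 19, Malat1 was the more abundant. It counted 5421, 5284 and 3335 in control retina and 496, 831 and 397 in control rod TRAP. The corresponding scaled counts in Abca4Ko mice were 4899, 5708 and 5709 in retina and 178, 441 and 414 in rod TRAP. All retina libraries were above all rod TRAP libraries. The log2 fold change was -2.34 (SE 0.24, limma adjusted p = 1.54e-06), 5.06-fold lower, in control mice and -3.45 (SE 0.28, limma adjusted p = 1.70e-06), 10.9-fold lower, in Abca4Ko mice.

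Neat1, the scaffold of paraspeckles, lay nearer to 0 than Malat1 in both genotypes. It counted 140, 226 and 138 in control retina and 41, 48 and 37 in control rod TRAP. In Abca4Ko mice it counted 141, 169 and 174 in retina and 27, 31 and 15 in rod TRAP. The fractions again did not overlap. Its log2 fold change was -1.14 (SE 0.21, limma adjusted p = 2.44e-04) in control mice and -1.88 (SE 0.26, limma adjusted p = 8.16e-05) in Abca4Ko mice. There were 28.8 ± 8.64 scaled counts of Malat1 per scaled count of Neat1 in control retina and 13.4 ± 3.47 in control rod TRAP, without overlap.

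Miat and Snhg11 are known mainly from neurons. Miat counted 126, 69 and 61 in control retina and 22, 60 and 93 in Abca4Ko retina, but only 1 to 4 in each of the 6 rod TRAP libraries. Snhg11, which holds 2 snoRNAs and which the GRCm38 annotation lists as protein coding, counted 509, 464 and 252 in control retina and 71, 13 and 15 in control rod TRAP. In Abca4Ko mice Snhg11 counted 184, 495 and 589 in retina and 6, 25 and 6 in rod TRAP. For both RNAs every rod TRAP library was below every retina library, and control rod TRAP replicate 1 held most of the Snhg11 of its group. The log2 fold changes of Miat were -2.59 (SE 0.26, limma adjusted p = 1.38e-06) in control and -2.07 (SE 0.33, limma adjusted p = 2.62e-04) in Abca4Ko mice. At these few counts they depend on the pseudocount. Miat passed the filter through retina alone, so their direction follows from the filter and the p-values do not test it. Those of Snhg11 were -2.93 (SE 0.47, limma adjusted p = 2.05e-04) and -3.86 (SE 0.42, limma adjusted p = 1.45e-05).

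Kcnq1ot1, the paternally expressed RNA that silences the imprinted Kcnq1 region on chromosome 7, did not pass the test in control mice. It counted 64, 95 and 30 in control retina and 25, 24 and 25 in control rod TRAP. In Abca4Ko mice it counted 67, 83 and 103 in retina and 16, 18 and 16 in rod TRAP. After rescaling, the control fractions overlapped through retina replicate 3, and the Abca4Ko fractions did not. The log2 fold change was -0.42 (SE 0.28, limma adjusted p = 0.197) in control and -1.38 (SE 0.22, limma adjusted p = 2.69e-04) in Abca4Ko mice. Without retina control replicate 3 it was -0.88 in control mice (limma adjusted p = 0.00324). The gene lies opposite Kcnq1, whose introns contain it, and the counting is not stated to use strand, so reads of the 2 strands cannot be told apart.

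Gas5, the RNA that ribosomes engage, did not pass the test in control mice and was lower in rod TRAP in Abca4Ko mice, and its call in both depended on the scaling or the libraries. It counted 1337, 908 and 1048 in control retina and 607, 582 and 525 in control rod TRAP. In Abca4Ko mice it counted 1571, 1300 and 1194 in retina and 665, 623 and 587 in rod TRAP. The 6 rod TRAP values spanned 525 to 665, a narrower range than the retina values. After rescaling, the log2 fold change was -0.21 (SE 0.16, limma adjusted p = 0.251) in control mice, where the fractions overlapped, and -0.50 (SE 0.19, limma adjusted p = 0.0383) in Abca4Ko mice, where they did not. Over 15 alternatives the call in Abca4Ko mice was kept in 10. Among the others, it was lost without rod TRAP Abca4Ko replicate 2 (limma adjusted p = 0.0927), rod TRAP Abca4Ko replicate 3 (0.117), retina Abca4Ko replicate 2 (0.0690) or both libraries labelled Abca4Ko replicate 3 (0.0535). In control mice Gas5 passed without retina control replicate 2 (log2 fold change -0.42, limma adjusted p = 0.0417). Gas5 was also lower in control mice with the authors' scaling alone (-0.85, limma adjusted p = 3.80e-04) and in the TPM table (-0.56, limma adjusted p = 0.00172). The same fits put it at -1.04 and -0.78 in Abca4Ko mice.

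Tug1, found in both nucleus and cytoplasm and known to be needed for photoreceptor development, was the only member higher in rod TRAP. It counted 1069, 1054 and 687 in control retina and 1085, 1235 and 1234 in control rod TRAP. In Abca4Ko mice it counted 1344, 1182 and 1799 in retina and 998, 1322 and 1396 in rod TRAP. The control fractions did not overlap, and the Abca4Ko fractions did. Its log2 fold change was 1.07 (SE 0.16, limma adjusted p = 4.79e-05) in control and 0.39 (SE 0.18, limma adjusted p = 0.0815) in Abca4Ko mice. With the replicate number as a block, which the libraries' deviations support as a pairing, the Abca4Ko value passed (limma adjusted p = 0.0243), as it did without rod TRAP Abca4Ko replicate 1 (log2 fold change 0.52, limma adjusted p = 0.0346). With the authors' scaling alone, which lowers the median of all genes to -0.62 in control and -0.49 in Abca4Ko mice, Tug1 was at 0.42 (limma adjusted p = 0.0399) and -0.15. The other members kept their direction under it, and Kcnq1ot1 (-0.94, limma adjusted p = 0.0165) and Gas5 then passed in control mice. Among all calls, 48.6% were higher in control mice and 26.3% under the authors' scaling. In Abca4Ko mice these shares were 47.4% and 22.6%. Tug1 overlaps Morc2a, and Gas5 overlaps Zbtb37, on the opposite strand, and these genes were at log2 fold changes of 1.01 and 0.98 in control mice.

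Both libraries labelled Abca4Ko replicate 3 were also left out, an alternative chosen after seeing the data. The shares of all genes lower and higher are not given for it, so its calls are a description. Malat1 (-3.66), Neat1 (-1.65), Meg3 (-3.72), Snhg11 (-3.38) and Kcnq1ot1 (-1.27, limma adjusted p = 0.00925) were then lower in rod TRAP of Abca4Ko mice. Gas5 (-0.60, limma adjusted p = 0.0535) and Tug1 (0.40, limma adjusted p = 0.186) did not pass, and Rian and Miat were then under the filter. The scaled counts of Rian in the remaining replicates were still 636 and 1203 in retina and 6 and 9 in rod TRAP.

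**Figure D2:**
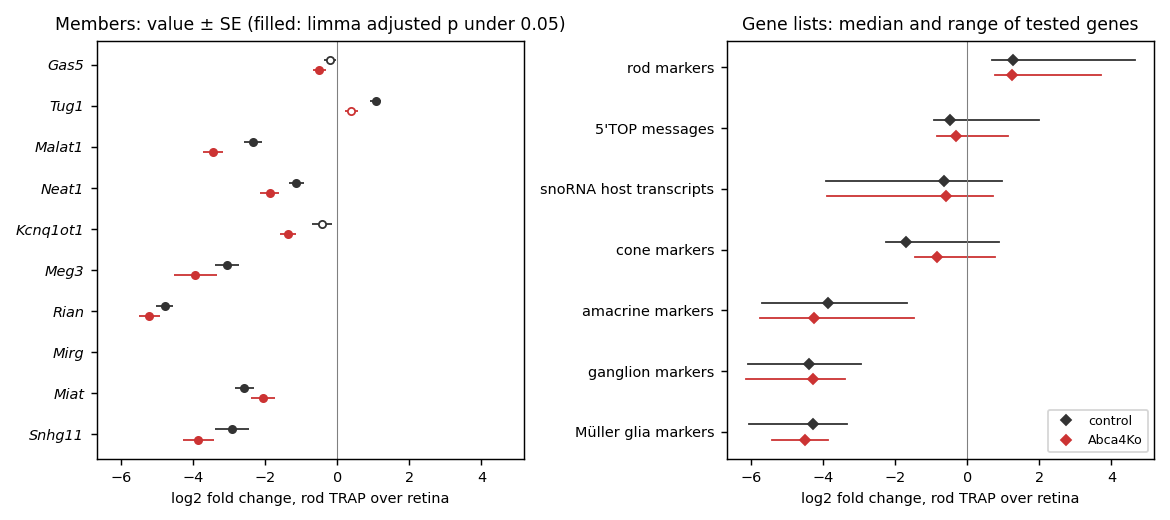
Left, log2 fold change of rod TRAP over retina for each member with its SE, in control (dark) and Abca4Ko (red) mice, filled where the limma adjusted p is under 0.05. Mirg was not tested. Right, the median (diamond) and range (line) of the tested genes of 7 lists. Rian, at -4.79 and -5.22, reaches the range of the ganglion, amacrine and Müller markers, Gas5 lies beside the 5′TOP messages, and Tug1 lies above 0.

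The level left in rod TRAP was also read pair by pair, as a percentage of the retina library of the same number and genotype. Rian was at 1.17% to 3.53% over the 6 pairs (median 1.93%). The summed ganglion cell markers were at 1.99% to 2.73%, the Müller glia markers at 3.57% to 6.52% and the amacrine markers at 6.10% to 11.0%, and the range of Rian overlapped that of the ganglion cell markers. It also overlapped the ranges of the horizontal cell (2.22% to 9.49%), vascular (2.97% to 9.10%) and lens markers (0.798% to 10.1%). Meg3 was at 3.19% to 11.0% and Malat1 at 4.93% to 25.6%. Neat1 was at 14.3% to 43.8%, Gas5 at 57.4% to 104% and Tug1 at 101% to 270%, while the summed rod markers were at 202% to 332%. How much of each nuclear RNA's lower level came from other cells and how much from the nucleus of rods was not tested.

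**Figure D3:**
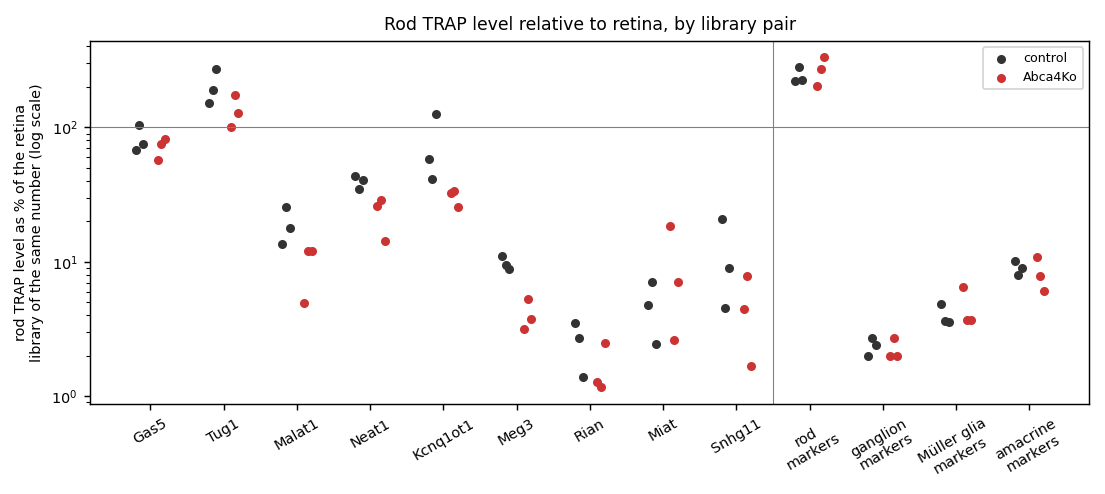
Rod TRAP level as a percentage of the retina library of the same replicate number, on a logarithmic axis, 3 pairs per genotype (control dark, Abca4Ko red). The members are left of the vertical line and summed marker lists right of it. Rian lies at a few percent, where it overlaps the ganglion markers, Gas5 between 57.4% and 104%, and Tug1 at or above 101%.

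Setting each RNA against Gas5 in the same library removes library scaling for RNAs well above the pseudocount of 0.5 CPM. Miat was under 0.5 CPM in every rod TRAP library. Meg3, Rian and Snhg11 were under it in at least 1 rod TRAP library of Abca4Ko mice. Their values relative to Gas5 there still depend in part on the scaling and the pseudocount. In control mice 6 of 8 members were lower in rod TRAP relative to Gas5, 1 was higher and 1 did not pass, against 30.1% lower and 35.8% higher among 16285 genes. Rian was at -4.58, Meg3 at -2.85, Snhg11 at -2.71, Miat at -2.37, Malat1 at -2.12 and Neat1 at -0.92 on the log2 scale. Kcnq1ot1 was at -0.21 and Tug1 at 1.28. Miat passed the filter through retina here too, and its direction follows from it. Rian, with 1 control rod TRAP library under 10 scaled counts, passed it with the help of retina. The counts of members are therefore a description. All genes share the error of Gas5 in this comparison, which makes the moderated p-values too small, so the spread of each gene alone was used as well, an alternative chosen after seeing the data. With it 5 of the 6 passed, with limma adjusted p-values from 0.00404 for Rian to 0.0314 for Snhg11, Tug1 passed (adjusted p = 0.0202), and Neat1 did not (adjusted p = 0.100). Its call was also lost without rod TRAP control replicate 1 (limma adjusted p = 0.0521) or retina control replicate 2 (0.0701). Over 16 alternatives Neat1 passed in 11. Its log2 fold changes were -1.17 to -0.26 in them, with limma adjusted p-values of up to 0.475.

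In Abca4Ko mice 7 of 8 were lower relative to Gas5 and 1 was higher, against 22.4% and 42.7% of 16035 genes. Rian was at -4.72, Meg3 at -3.44, Snhg11 at -3.36, Malat1 at -2.95, Miat at -1.57, Neat1 at -1.38, Kcnq1ot1 at -0.88 and Tug1 at 0.89. With the spread of each gene alone, Malat1, Neat1, Snhg11 and Rian passed, with limma adjusted p-values from 0.00670 to 0.0267. Meg3 (0.0522), Kcnq1ot1 (0.0664), Tug1 (0.0819) and Miat (0.107) did not. Miat, and in part Rian, Snhg11 and Meg3, passed the filter through retina here too. Without both libraries labelled Abca4Ko replicate 3, Malat1 (-3.06), Meg3 (-3.11) and Snhg11 (-2.78) were lower and Tug1 (1.01) was higher relative to Gas5, while Neat1 (-1.04, limma adjusted p = 0.0589) and Kcnq1ot1 (-0.67, limma adjusted p = 0.206) did not pass. The call of Tug1 relative to Gas5 was also lost without 1 of 4 libraries, rod TRAP Abca4Ko replicate 2 or 3 or retina Abca4Ko replicate 1 or 2, with limma adjusted p-values of 0.0583 to 0.0717. That of Kcnq1ot1 was lost without any library other than retina Abca4Ko replicate 1 (0.0911 to 0.115), and that of Miat without rod TRAP Abca4Ko replicate 2 (0.0668). Kcnq1ot1 passed in only 5 of 16 alternatives, at log2 fold changes of -1.12 to -0.40, with limma adjusted p-values of up to 0.247. Over 17 alternatives Neat1 passed in 15, at log2 fold changes of -1.57 to -0.53, with limma adjusted p-values of up to 0.214.

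The ratio of Tug1 to Gas5 shows the contrast within single libraries. In control retina there were 0.872 ± 0.260 scaled counts of Tug1 per scaled count of Gas5 (SD, n = 3), and in control rod TRAP there were 2.09 ± 0.283. In Abca4Ko mice the ratios were 1.09 ± 0.361 in retina and 2.00 ± 0.451 in rod TRAP. The control groups lay apart, at 0.656 to 1.16 and at 1.79 to 2.35, and the Abca4Ko groups met, the highest retina library being at 1.51 and the lowest rod TRAP library at 1.501. Without both libraries labelled Abca4Ko replicate 3, the ratios were 0.856 and 0.909 in retina and 1.501 and 2.12 in rod TRAP. For Malat1 the ratio went the other way, from 4.35 ± 1.34 in control retina to 1.00 ± 0.371 in control rod TRAP, and from 4.10 ± 0.870 to 0.560 ± 0.253 in the Abca4Ko groups, with no overlap in either. Without both replicates 3 the Abca4Ko ratios of Malat1 were 3.12 and 4.39 in retina and 0.268 and 0.708 in rod TRAP.

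**Figure D4:**
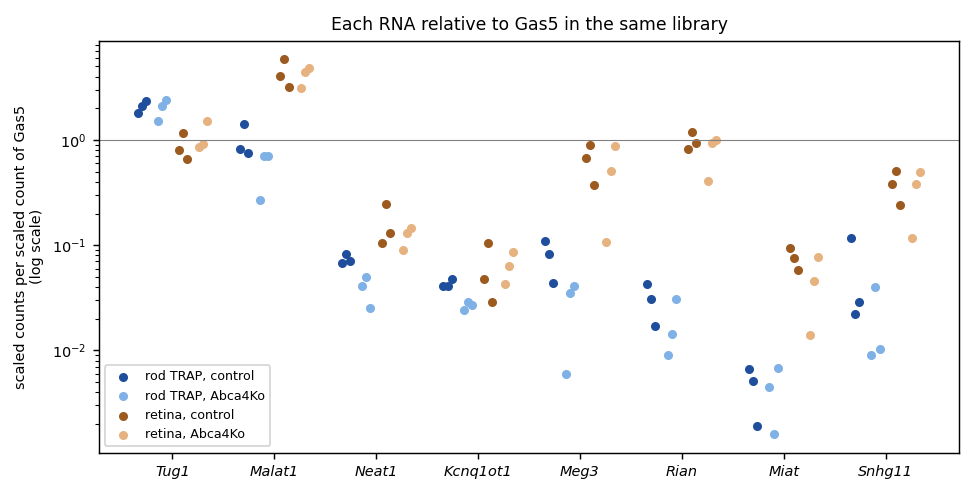
Scaled counts of each RNA per scaled count of Gas5 in the same library, on a logarithmic axis, 3 points per group. Mirg, at 0 in most rod TRAP libraries, is not shown. Rian falls from about 1 in control retina (0.982 ± 0.190) to 0.0303 ± 0.0129 in control rod TRAP, and Tug1 rises above 1 in every rod TRAP library.

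Related genes were read in the same fits. Over all genes, 38.8% were lower and 36.6% higher in control mice, and 33.7% were lower and 30.4% higher in Abca4Ko mice. These shares stand beside the counts of each list below under TMM scaling. With the authors' scaling, 9549 of the 16286 genes were lower and 3415 higher in control mice. In Abca4Ko mice 7814 of 16036 were lower and 2282 higher. The list counts under that scaling stand beside these, and most genes called there were lower. Of 14 other snoRNA host transcripts tested in control mice, 8 were lower in rod TRAP, 1 was higher and 5 did not pass, with a median log2 fold change of -0.64. Snhg18 (-3.93) and Snhg14 (-1.47) were the lowest, Snhg5 (0.97) was the only one higher, and Snhg10 was at -0.01. In Abca4Ko mice 6 were lower and 1 was higher, with a median of -0.59. With the authors' scaling 13 were lower and 1 was higher in control mice, with a median of -1.25, and 11 were lower and none was higher in Abca4Ko mice. Gas5 itself, at -0.21 and -0.50, lay above both medians and below Snhg5.

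Among 19 other named long noncoding RNAs, 10 were lower and 5 were higher in control mice, with a median of -0.71. Six3os1, the antisense partner of the eye field gene Six3, was at -4.20, and Mir124a-1hg, the host of a neuronal microRNA, at -3.45. Oip5os1, also known as Cyrano, was at 2.11 and Dleu2 at 1.10. In Abca4Ko mice 13 of 22 were lower and 2 were higher. With the authors' scaling 13 were lower and 2 higher in control mice, and 16 and 1 in Abca4Ko mice.

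The 5′TOP messages are named for their type of start, but the tract was found in only 2 of their 16 matched windows. In Gas5 it was at the second annotated start only, so a start shared by the list and Gas5 was not shown. The median of the list was -0.47 in control mice, where 11 of 19 were lower and 5 were higher. Eef1b2 (-0.92) and Rps4x (-0.90) were the lowest. Npm1, the nucleolar chaperone (1.98), and Pabpc1, the poly(A)-binding protein (1.34), were the highest. In Abca4Ko mice 4 were lower and 3 higher, with a median of -0.32. These counts moved with the scaling: 14 were lower and 3 higher in control mice under the authors' scaling, and in Abca4Ko mice 14 were lower and 2 higher under it (median -0.86) and 8 lower and 3 higher under median-of-ratios scaling. Summed over the list they were at 73.8% to 103% of the paired retina library, beside 57.4% to 104% for Gas5.

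Messages for the proteins that gather in speckles and paraspeckles were read beside Malat1 and Neat1, and a link between them was not tested. Of 16 paraspeckle and speckle proteins, 15 were higher in rod TRAP in both genotypes, with medians of 1.48 and 1.01. Matr3 was at 3.60 and Hnrnph1 at 2.48 in control mice. Rbm14, a core paraspeckle protein, was at 0.48, and Srsf2, at 0.23 (limma adjusted p = 0.0883), did not pass. With the authors' scaling 12 were higher and 1 was lower in control mice, and 11 and 1 in Abca4Ko mice.

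Messages for the nonsense-mediated decay factors, which degrade Gas5 once it is translated, were higher for 9 of 12 in both genotypes, with medians of 0.69 and 0.67. Upf3b (3.79) and Upf2 (3.76) were the highest in control mice, where Smg9 (-0.37) was lower and Smg5 was at 0.20. Under the authors' scaling 4 were higher and 3 lower in control mice, and 2 were higher and none was lower in Abca4Ko mice. Genes that neighbour the members went both ways, with 5 higher and 5 lower of 12 in control mice and 3 and 5 in Abca4Ko mice, and 2 higher and 6 lower in each under the authors' scaling. Begain, in the region of Meg3, was at -4.89 and Ltbp3, beside Neat1 and Malat1, at -4.78. Ralgapb, near Snhg11, was the highest at 1.83.

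The genes closest in pattern to 3 of the members over the 12 libraries were found by the root mean square difference of centred log2 values among 10952 genes with at least 5 CPM. For Malat1 these were Id4 (0.289), Pcdh7 (0.353) and Pde1c (0.375). For Meg3 they were the ion channels Nalcn (0.477) and Kcng4 (0.496) and the synaptic scaffold Shank2 (0.497). Gas5 had closer neighbours, Magef1 (0.129), Tmsb4x (0.130) and Rps2-ps10 (0.132). The points share library and depth, and the values are a description.

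The second comparison asked whether loss of Abca4 changed these RNAs. None of 8 members tested in rod TRAP and none of 10 tested in retina passed the test. Of all genes, 1.13% passed in rod TRAP (148 of 13104) and 0.106% in retina (18 of 16964), where 1368 and 2034 genes were at an unadjusted p under 0.05. The median over the members was -0.53 in rod TRAP, beside 0.00 over all genes, and -0.03 in retina, beside -0.02. Miat and Mirg were too low to be tested in rod TRAP.

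In rod TRAP, Neat1 counted 27, 31 and 15 against 41, 48 and 37 in control mice, and the groups did not overlap. Its log2 fold change was -0.64 (SE 0.24, limma adjusted p = 0.354). Kcnq1ot1, at 16, 18 and 16 against 25, 24 and 25, did not overlap either, and its log2 fold change was -0.39 (SE 0.19, limma adjusted p = 0.525). Among all genes 9.07% were lower without overlap. Meg3 was at -1.14 (SE 0.39, limma adjusted p = 0.306), Malat1 at -0.75 (SE 0.41), Snhg11 at -0.83 (SE 0.53) and Rian at -0.42 (SE 0.30), and these groups overlapped. Tug1 was at 0.06 (SE 0.11) and Gas5 at 0.14 (SE 0.11). Without the library labelled Abca4Ko replicate 3, Neat1 was at -0.40, Meg3 at -1.38, Malat1 at -0.91, Snhg11 at -0.63 and Kcnq1ot1 at -0.36, and Tug1 turned to -0.013.

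In retina, Tug1 counted 1344, 1182 and 1799 in Abca4Ko against 1069, 1054 and 687 in control mice, without overlap. Its log2 fold change was 0.63 (SE 0.21, limma adjusted p = 0.400), and 10.4% of all genes were higher without overlap. It was 0.52 without the library labelled Abca4Ko replicate 3. The other members overlapped between genotypes and ranged from -0.59 (SE 0.39) for Miat to 0.47 (SE 0.32) for Kcnq1ot1, with Gas5 at 0.31 (SE 0.23) and Malat1 at 0.25 (SE 0.20).

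A library stood apart in retina. Retina Abca4Ko replicate 1 was the lowest of the 6 retina libraries in Meg3 (170), Miat (22), Snhg11 (184) and Rian (636). It also had the lowest summed amacrine and ganglion cell markers (374 and 558 CPM, beside 454 to 649 and 687 to 744 in the others) and the highest summed rod markers. The part of tissue composition in these values was not tested. Without it the log2 fold changes of Meg3, Snhg11 and Rian turned from -0.42, -0.04 and -0.11 to 0.25, 0.38 and 0.12.

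**Figure D5:**
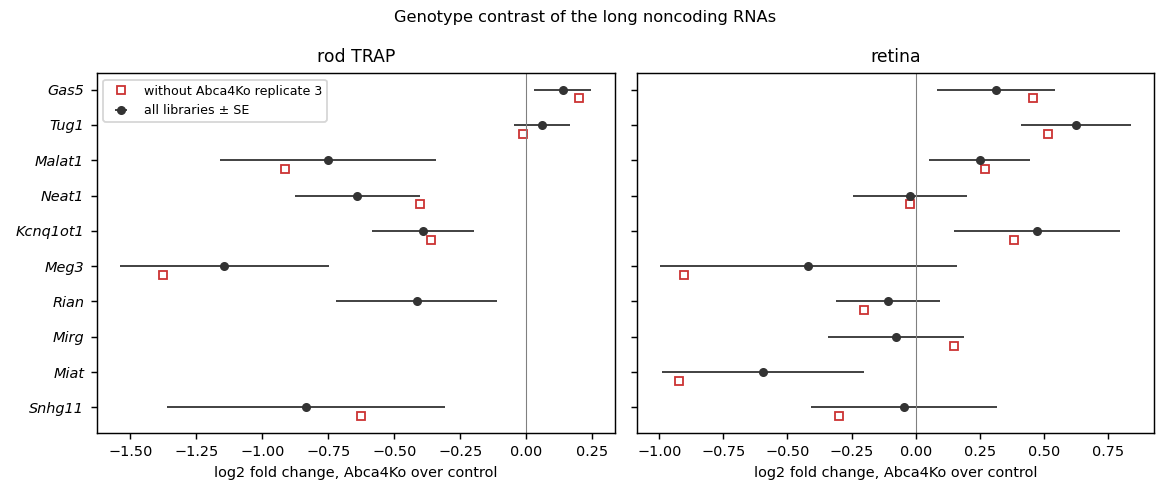
Log2 fold change of Abca4Ko over control with its SE for each member tested in rod TRAP (left) and retina (right), and the value without the library labelled Abca4Ko replicate 3 (open red squares). No member passed the test in either fraction. Meg3 lies furthest from 0 in rod TRAP, at -1.14, and Tug1 in retina, at 0.63. Rian has no square on the left because it did not pass the filter on low values without that library.

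The third comparison asked whether the genotype difference itself differed between rod TRAP and retina, in 1 fit of all libraries. None of the 10 members passed, and 1 of 17273 genes did (0.00579%), with 1952 at an unadjusted p under 0.05. Malat1 had the lowest value, -1.03 (SE 0.43, limma adjusted p = 0.418), followed by Kcnq1ot1 at -0.89 (SE 0.37, adjusted p = 0.420). Neat1 was at -0.67 (SE 0.33), Tug1 at -0.59 (SE 0.26) and Gas5 at -0.20 (SE 0.27). The median over the members was -0.63, beside 0.01 over all genes. The larger negative fraction changes of Malat1, Neat1 and Meg3 in Abca4Ko mice were therefore not shown to differ from those in control mice. In the paired libraries Meg3 stood at 8.80% to 11.0% of retina in the 3 control pairs and at 3.19% to 5.25% in the 3 Abca4Ko pairs, Neat1 at 34.5% to 43.8% and 14.3% to 28.6%, and Malat1 at 13.7% to 25.6% and 4.93% to 12.1%. Kcnq1ot1 stood at 41.1% to 125% and 25.7% to 33.8%, and Gas5 at 67.8% to 104% and 57.4% to 81.4%. The Abca4Ko pairs lay below the control pairs without overlap in Malat1, Neat1, Meg3 and Kcnq1ot1 and above them in no member, beside 11.3% of all genes below and 7.55% above. Summed lists lay apart too, the paraspeckle and speckle protein messages at 251% to 303% and 198% to 231%, and the cone markers, in the other direction, at 25.9% to 33.4% and 43.2% to 51.0%.

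Without both libraries labelled Abca4Ko replicate 3, Malat1 was at -1.24 (limma adjusted p = 0.708), Kcnq1ot1 at -0.79, Meg3 at -0.58, Tug1 at -0.58, Neat1 at -0.44 and Gas5 at -0.30 in this comparison, and again none of the 10 members passed. The 2 remaining Abca4Ko pairs were at 4.93% and 12.1% for Malat1, 26.0% and 28.6% for Neat1, 3.19% and 5.25% for Meg3 and 32.4% and 33.8% for Kcnq1ot1.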

How the data were processed

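The authors sequenced cDNA made with the SMARTer Ultra Low Input kit, sheared and turned into libraries without strand marks. The processing notes per the labels name CASAVA 1.8.2, HISAT2, edgeR, DESeq2 and GRCm39, without their roles. The authors deposited a table of scaled counts, used as a score because the counts were multiplied by 1 factor per library and rounded, and a table of TPM to 1 decimal. Spacing of low values gave the reads behind 7 of 12 libraries as 14800000 to 23200000, and the depth of the others is unknown. Precision is limited by 3 libraries per group, and intervals cover counting error only.

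Scaled counts were rescaled by TMM (trims of 0.3 and 0.05) in R 4.3.3 and fitted with limma 3.58.1 (trend, robust, two-sided) on log2(CPM + 0.5) for genes with at least 10 scaled counts in at least 3 of the libraries fitted. Fold changes are on that scale, which understates those of low genes. P-values were adjusted by Benjamini-Hochberg over all genes tested, at a threshold of 0.05. No count test was run, since the values are not counts. Relative to Gas5, its log2 value was subtracted in each library. All 10 members are named, with the 2 highest and 2 lowest genes of each related list in control mice and the 3 closest genes of Malat1, Meg3 and Gas5, except 1 gene that is not reported here. The members and lists were chosen with earlier results of these data known. Sequences are from RefSeq and GENCODE on GRCm38, so no other coordinates are given. Groups and replicate numbers came from the labels. Deviations from the group means correlated between the rod TRAP and retina libraries of the same number in all 6 pairs (r = 0.160 to 0.433), so the numbers pair the fractions, although rod TRAP Abca4Ko replicate 2 correlated slightly more with retina replicate 3 (r = 0.229) than with its own number (r = 0.206). Between genotypes the correlations were -0.394 to 0.0120, which gives no pairing. Alternatives were the authors' scaling, median-of-ratios scaling, other pseudocounts and filters, the TPM table, 1 fit of all libraries, the replicate block and leaving out each library.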

Additional observations from a re-analysis of the deposited data

How the results depend on the processing

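All alternatives kept the direction of Malat1, Neat1, Meg3, Snhg11 and Rian in both fraction contrasts, and each passed wherever it was tested, though for Rian, and in Abca4Ko mice also for Meg3 and Snhg11, the filter favours that direction. The block gave 1 member higher in the Abca4Ko fraction contrast, as reported, 46 genes in the retina genotype contrast, and changed no other call. With 1 library left out, genes called were 9050 to 11453 in the control and 6595 to 9820 in the Abca4Ko fraction contrast (the lowest without retina Abca4Ko replicate 2), 30 to 594 in the rod TRAP genotype contrast (594 without Abca4Ko replicate 1; 30, 33 and 36 without a control library) and 1 to 21 in retina (1 without Abca4Ko replicate 1 or control replicate 3, 4 without Abca4Ko replicate 2, 10 without control replicate 1), and in the Abca4Ko fraction contrast members lower were 6 to 8 and members higher 0 to 1, as were members higher relative to Gas5. Without both libraries labelled Abca4Ko replicate 3, an alternative added after seeing the data, 5716 genes were called and 5 members were lower. Rian and Miat were then under the filter and Gas5 did not pass, and relative to Gas5 3 members were lower. The shares of all genes by direction are not given for this alternative, so its member counts are a description. The TPM table gave 58 genes in the rod TRAP genotype contrast, 38 in retina, 3 in the interaction, and 4 members lower relative to Gas5 in Abca4Ko mice; 1 fit of all libraries gave 94 and 62; no filter gave 33 in retina and a minimum of 50 gave 9. With the spread of each gene alone, 4 members were lower and 0 higher relative to Gas5 in Abca4Ko mice; relative to the snoRNA hosts, 2 were higher in control mice. Directions that turned, none of them called, are given with the range over single libraries left out: Tug1 in the Abca4Ko fraction contrast (-0.15, authors' scaling; 0.24 to 0.52) and the rod TRAP genotype contrast (-0.010 with TPM; -0.013 without Abca4Ko replicate 3 to 0.16); in the retina genotype contrast Snhg11 (0.14 with TPM; -0.32 to 0.38, above 0 without Abca4Ko replicate 1 or control replicate 1 or 2), Meg3 (-0.90 to 0.25) and Rian (-0.23 to 0.12), both above 0 without Abca4Ko replicate 1, Mirg (-0.24 to 0.15, above 0 without Abca4Ko replicate 3) and Neat1 (-0.11 to 0.16, above 0 without control replicate 2); Mirg in the interaction (-0.080 without retina Abca4Ko replicate 3 to 0.28, and -0.049 without both replicates 3); and Kcnq1ot1 relative to Gas5 in control mice (0.34 against the snoRNA hosts; -0.53 to 0.24, above 0 without retina control replicate 2). The cause was not tested.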
